A study of Mus musculus with 8 samples.

Results

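The 9 mature microRNAs described here are both arms of 4 hairpin families, miR-872, miR-129, miR-296 and miR-345, out of 1978 mouse miRNAs in the count table. They were chosen by their counts in extracellular vesicles (EVs), since 1 arm of each family had EV reads in 1 shRNA condition and none in the other. The EV counts are therefore given as a description, without a test. Tests were run on the cell libraries, which the choice did not use. The miR-129 family has 3 members, namely a 5p arm common to a pair of hairpins and the 3p arm of each.

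The samples came from 3A cells, a nontumorigenic hepatocyte line of the mouse, and from EVs that these cells released into medium with EV-depleted serum over 72 h. All cells had been infected with a pSUPER retro puro retrovirus and selected with puromycin. The shCTR cells carried a scrambled shRNA and the shPCBP2 cells an shRNA that silences PCBP2, an RNA-binding protein. Each shRNA was studied in the cells (cell shCTR and cell shPCBP2) and in their EVs (EV shCTR and EV shPCBP2), with 2 biological replicates in each of these 4 groups. The level of PCBP2 itself is not measured by small RNA libraries. A miRNA hairpin is cut into a duplex of a 5p and a 3p strand, and usually 1 strand is loaded into an Argonaute protein while the other is degraded. The loaded strand finds target mRNAs mainly through its seed, bases 2 to 8. Part of the cellular miRNA pool leaves hepatocytes in EVs, and RNA-binding proteins can take part in which miRNAs leave and which stay. Whether both arms of a hairpin went the same way in cells and in EVs, with and without PCBP2 silencing, is the comparison made here.

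Mouse miRNAs received between 8745848 and 12732173 counts in each cell library and between 503070 and 687592 in each EV library, and the nematode spike-in cel-miR-39, added before library preparation, took 57.4% to 66.9% of counts in cells and 97.6% to 98.4% in EVs. The 9 members held 0.286% to 0.649% of the mouse counts in cells. miR-122-5p, the miRNA that dominates adult liver, had only 356 to 485 counts in the cell libraries. miR-194-5p and miR-192-5p, the others of a hepatocyte list, had 218474 to 342726 and 10976 to 20510. In the EV libraries miR-122-5p had 795 to 2327 counts, miR-194-5p 3784 to 5454 and miR-192-5p 0 to 1058. A list of 7 blood cell miRNAs summed to 283 and 196 counts in the shCTR cells, to 84 and 99 in the shPCBP2 cells and to 38102 to 47096 in EVs, with 4 or 5 of the 7 at 0 in each cell library and at most 1 in each EV library.

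The mature sequences are printed because they show that the 8 arms listed share no seed with each other. The prefix mmu-, for mouse, is left out after this list. They come from RefSeq (GRCm38.p6), which matched 8 of the 9 members, all but miR-129-1-3p, and run 5′ to 3′ with the seed in capitals. No other mature miRNA in that table had any of these seeds. miR-129-1-3p was not compared. The 3p side of its hairpin, printed below, holds the seed of miR-129-2-3p, so these members may share it.
mmu-miR-872-5p: aAGGUUACuuguuaguucagg
mmu-miR-872-3p: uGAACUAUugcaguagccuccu
mmu-miR-129-5p: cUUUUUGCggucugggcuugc
mmu-miR-129-2-3p: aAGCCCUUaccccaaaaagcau
mmu-miR-296-5p: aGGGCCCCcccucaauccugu
mmu-miR-296-3p: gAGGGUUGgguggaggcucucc
mmu-miR-345-5p: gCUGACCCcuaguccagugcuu
mmu-miR-345-3p: cCUGAACUaggggucuggagac

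The hairpins are printed to show where the arms lie, with the mature arms matched to RefSeq in capitals, and the pair of miR-129 hairpins shows a 5p arm that reads alone cannot assign to either.
Mir872: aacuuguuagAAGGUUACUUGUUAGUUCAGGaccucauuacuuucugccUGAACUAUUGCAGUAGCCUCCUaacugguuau
Mir129-2: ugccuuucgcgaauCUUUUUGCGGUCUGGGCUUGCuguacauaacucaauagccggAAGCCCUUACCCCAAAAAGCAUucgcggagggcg
Mir129-1: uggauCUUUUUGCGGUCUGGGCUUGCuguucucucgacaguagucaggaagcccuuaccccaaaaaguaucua
Mir296: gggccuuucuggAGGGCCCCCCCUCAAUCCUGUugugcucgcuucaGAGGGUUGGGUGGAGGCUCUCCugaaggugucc
Mir345: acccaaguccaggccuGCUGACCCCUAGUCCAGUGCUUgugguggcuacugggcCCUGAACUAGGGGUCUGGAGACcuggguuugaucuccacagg

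On GRCm38, Mir872 lies at chr4:94665157-94665237 on the forward strand, in an intron of Ift74, which encodes a component of the intraflagellar transport machinery. Mir129-2 lies at chr2:94241364-94241453 on the reverse strand, in an intron of the noncoding gene Mir670hg and opposite the antisense hairpin Mir129b. Mir129-1 lies at chr6:29022619-29022691 on the forward strand, in an exon of the lincRNA Gm3294. Mir296 lies at chr2:174267047-174267125 on the reverse strand and overlaps no other annotated gene, and the Mir298 hairpin is 378 bases away. Mir345 lies at chr12:108836973-108837068 on the forward strand, inside Slc25a47, a mitochondrial carrier gene of hepatocytes. Its last 5 bases overlap an exon, and both of its arms lie outside that exon. The 4 families therefore share no host gene.

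Short motifs were searched in the mature strands as printed above. AUUA and AUUG are cores of a motif named in work on miRNA retention, and GGCU is the core of one named for export. CCCC, a run of C, was searched beside them. Longer or variable forms of these motifs were not searched, so an arm without a match may still hold one. AUUG was found in miR-872-3p at base 7, and 6.79% of 1679 mouse mature miRNAs held it. AUUA was found in no member (2.50% of all). GGCU was found at base 15 of miR-129-5p and at base 15 of miR-296-3p (13.3% of all). CCCC was found in miR-129-2-3p at base 10, in miR-296-5p at 4 overlapping starts from base 5 to base 8, and in miR-345-5p at base 6 (7.33% of all). The 4 arms read in both EV libraries of 1 condition and in neither of the other had no motif of these letters in common. A match is a description of the letters and not of a bound protein.

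miR-129 was the family whose level in cells fell most clearly. miR-129 is best known as a miRNA of nervous tissue. miR-129-5p had 33604 and 38315 counts in cell shCTR and fell to 7784 and 11186 in cell shPCBP2. miR-129-2-3p had 5802 and 4625 counts in cell shCTR and 722 and 874 in cell shPCBP2. For both arms the conditions were far apart relative to the difference between replicates. Scaled to the spike-in, miR-129-5p went from 2160 ± 389 to 534 ± 132 counts per 1000000 spike-in reads, called spike-in-scaled counts hereafter (SD, n = 2), a 4.04-fold lower level in shPCBP2. miR-129-2-3p went from 310 ± 22.4 to 45.0 ± 5.75 on the same scale (SD, n = 2), a 6.89-fold lower level. The fall of miR-129-2-3p had the smallest p of all 460 miRNAs tested in cells, with a log2 change of -2.78 (SE 0.29) and an adjusted p of 7.8e-07, and miR-129-5p ranked 3 with -2.02 (SE 0.31) and an adjusted p of 0.000238 (edgeR quasi-likelihood test, Benjamini-Hochberg).

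Of the 460 miRNAs tested in cells, 19 (4.13%) had an adjusted p under 0.05, all lower in shPCBP2, and 2 of the 9 members were among them. The median log2 change of all 460 was -0.49 with the spike-in scaling, and the fitted level was lower in shPCBP2 for 78.5% of them and for 9 of the 9 members (for miR-129-1-3p the filter on low counts fixed this, as described below), although the signs of miR-872-3p and miR-345-5p turned with TMM factors and with median-of-ratios size factors, and that of miR-296-5p with the latter. In bulk RNA, fewer cells and less RNA per cell cannot be told apart, and neither can a different amount of RNA taken into the library. TMM factors, which place that median at -0.02, called 12 miRNAs higher and 15 lower, and left miR-129-2-3p at -2.30 and miR-129-5p at -1.54. The blood cell miRNAs also moved with the shRNA in cells, at 15.9 and 12.5 spike-in-scaled counts in shCTR and 4.76 and 5.56 in shPCBP2, and their part in the cell results was not tested. The calls depended on single libraries. Without cell shPCBP2 replicate 1, miR-129-2-3p had a log2 change of -2.66 with an adjusted p of 0.0678 and miR-129-5p one of -1.78 with 0.0978, and none of the 435 miRNAs then tested was called by edgeR, with 60 at an unadjusted p under 0.05. Without cell shCTR replicate 2, miR-129-5p had a log2 change of -1.82 with an adjusted p of 0.170 (edgeR quasi-likelihood test, Benjamini-Hochberg). In the fit of all 8 libraries, which shares 1 spread estimate between cells and EVs, the log2 changes were the same and the adjusted p-values were 0.269 and 0.635.

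**Figure D1:**
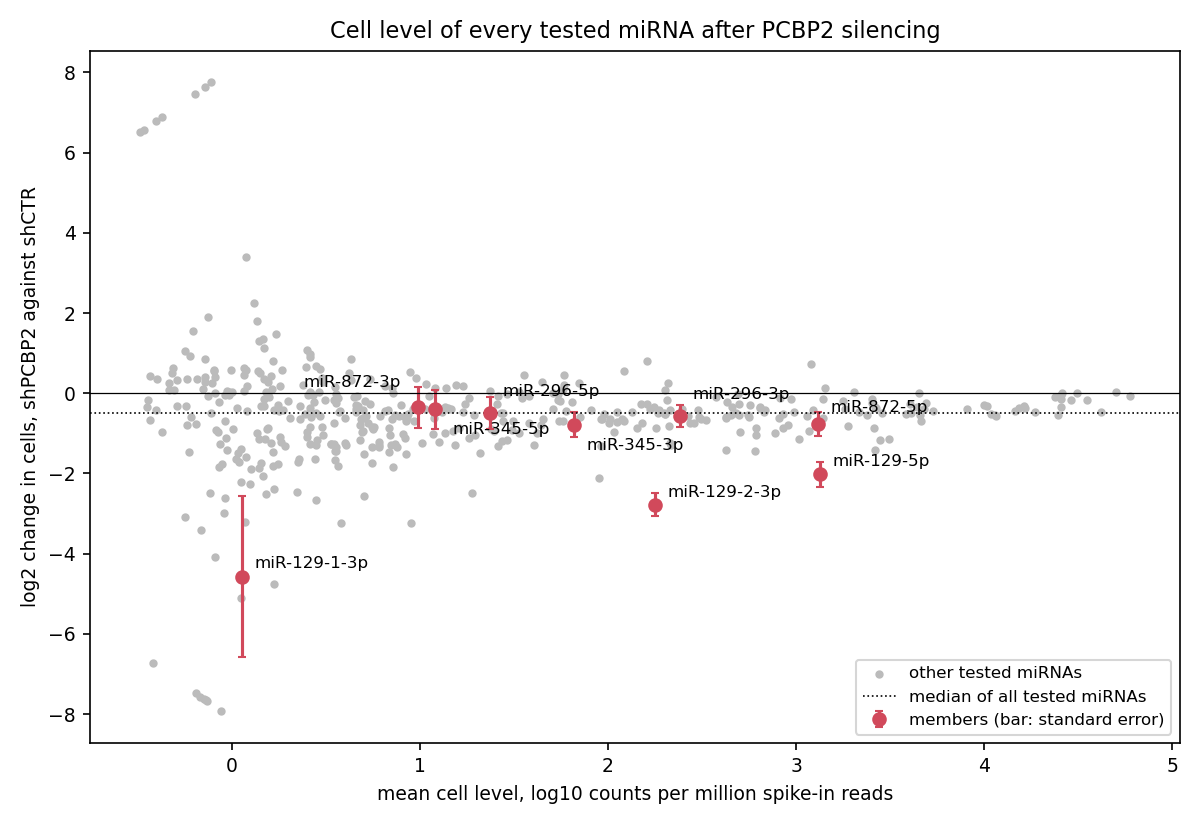
Change of every tested miRNA in cells after PCBP2 silencing. The horizontal axis gives the mean cell level (log10 spike-in-scaled counts), the vertical axis the log2 change of shPCBP2 against shCTR, with 1 point per miRNA (460 in all), members in red with their standard error and the median of all tested miRNAs dotted. miR-129-5p and miR-129-2-3p lie below most miRNAs of their level, miR-129-1-3p lies among rare miRNAs with widely scattered values, and the other members lie near the median of -0.49.

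The 3p arm of the other miR-129 hairpin was rare. miR-129-1-3p had 20 and 51 counts in cell shCTR and 3 and 0 in cell shPCBP2, and none in EVs. With shPCBP2 set to 3 counts in each library, its level was 12.9-fold lower there. Since 3 reads were in fact counted in cell shPCBP2 replicate 1, this fold is not a lower limit. It passed the filter on low counts only through the shCTR libraries, which fixed its direction, so no test of it is given. Its sequence in the hairpin is close to that of miR-129-2-3p, so reads could be split between them and its count is uncertain. miR-129b-5p, from the hairpin opposite Mir129-2 and named after its values were seen, had 46 and 45 counts in cell shCTR and 3 and 36 in cell shPCBP2 (adjusted p = 0.627, edgeR quasi-likelihood test, Benjamini-Hochberg). The replicates of shPCBP2 differed too much for that small RNA to be placed. Of the 4 neural marker miRNAs of a list, which summed to 820 to 1110 counts in cells, miR-138-5p held most (789 and 905 counts for shCTR, 758 and 1042 for shPCBP2). miR-9-5p was counted 107 and 173 times in the shCTR cells and 62 and 68 times in the shPCBP2 cells, without overlap (log2 change -1.21, SE 0.59, adjusted p = 0.235, edgeR quasi-likelihood test, Benjamini-Hochberg). miR-124-3p had 29 counts in cell shCTR replicate 1 and 0 in the other libraries, and miR-219a-5p was at 0 throughout. Their part in the values of miR-129 was not tested.

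The other 3 families differed less between the cell groups, and none of their 6 arms was called. miR-872-5p, their most abundant arm, had 29629 and 25767 counts in cell shCTR and 15851 and 18554 in cell shPCBP2. Its level was 1650 ± 17.6 against 970 ± 101 spike-in-scaled counts (SD, n = 2), with a log2 change of -0.77 (SE 0.29) and an adjusted p of 0.144 (edgeR quasi-likelihood test, Benjamini-Hochberg). miR-872-3p was far rarer, with 227 and 145 counts in cell shCTR and 113 and 192 in cell shPCBP2 (log2 change -0.35, SE 0.50, adjusted p = 0.763 by the same test). The miR-872-5p libraries did not overlap between conditions, and those of miR-872-3p did.

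miR-296, transcribed from the imprinted Gnas region and studied for its role in blood vessel growth, gave similar fitted values for both arms. miR-296-3p had 4443 and 5148 counts in cell shCTR and 3280 and 3612 in cell shPCBP2, with a log2 change of -0.57 (SE 0.27, adjusted p = 0.222). miR-296-5p had 563 and 372 counts in cell shCTR and 304 and 393 in cell shPCBP2, with a log2 change of -0.49 (SE 0.39, adjusted p = 0.503, edgeR quasi-likelihood test, Benjamini-Hochberg for both). Both values lay close to the median of all tested miRNAs. The raw counts of miR-296-5p overlapped between conditions, and its levels relative to the spike-in did not.

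For miR-345, the 3p arm had 1515 and 1281 counts in cell shCTR and 689 and 1031 in cell shPCBP2, a log2 change of -0.78 (SE 0.32) with an adjusted p of 0.162. The 5p arm had 309 and 160 counts in cell shCTR and 130 and 239 in cell shPCBP2, a log2 change of -0.40 (SE 0.49) with an adjusted p of 0.711 (edgeR quasi-likelihood test, Benjamini-Hochberg for both). The conditions did not overlap for the 3p arm and overlapped for the 5p arm. Relative to the spike-in, 7 of the 9 members had both shPCBP2 cell libraries below both shCTR cell libraries, where 49.1% of all tested miRNAs did. The filter fixed this order for miR-129-1-3p, and the members without this order were miR-872-3p and miR-345-5p.

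**Figure D2:**
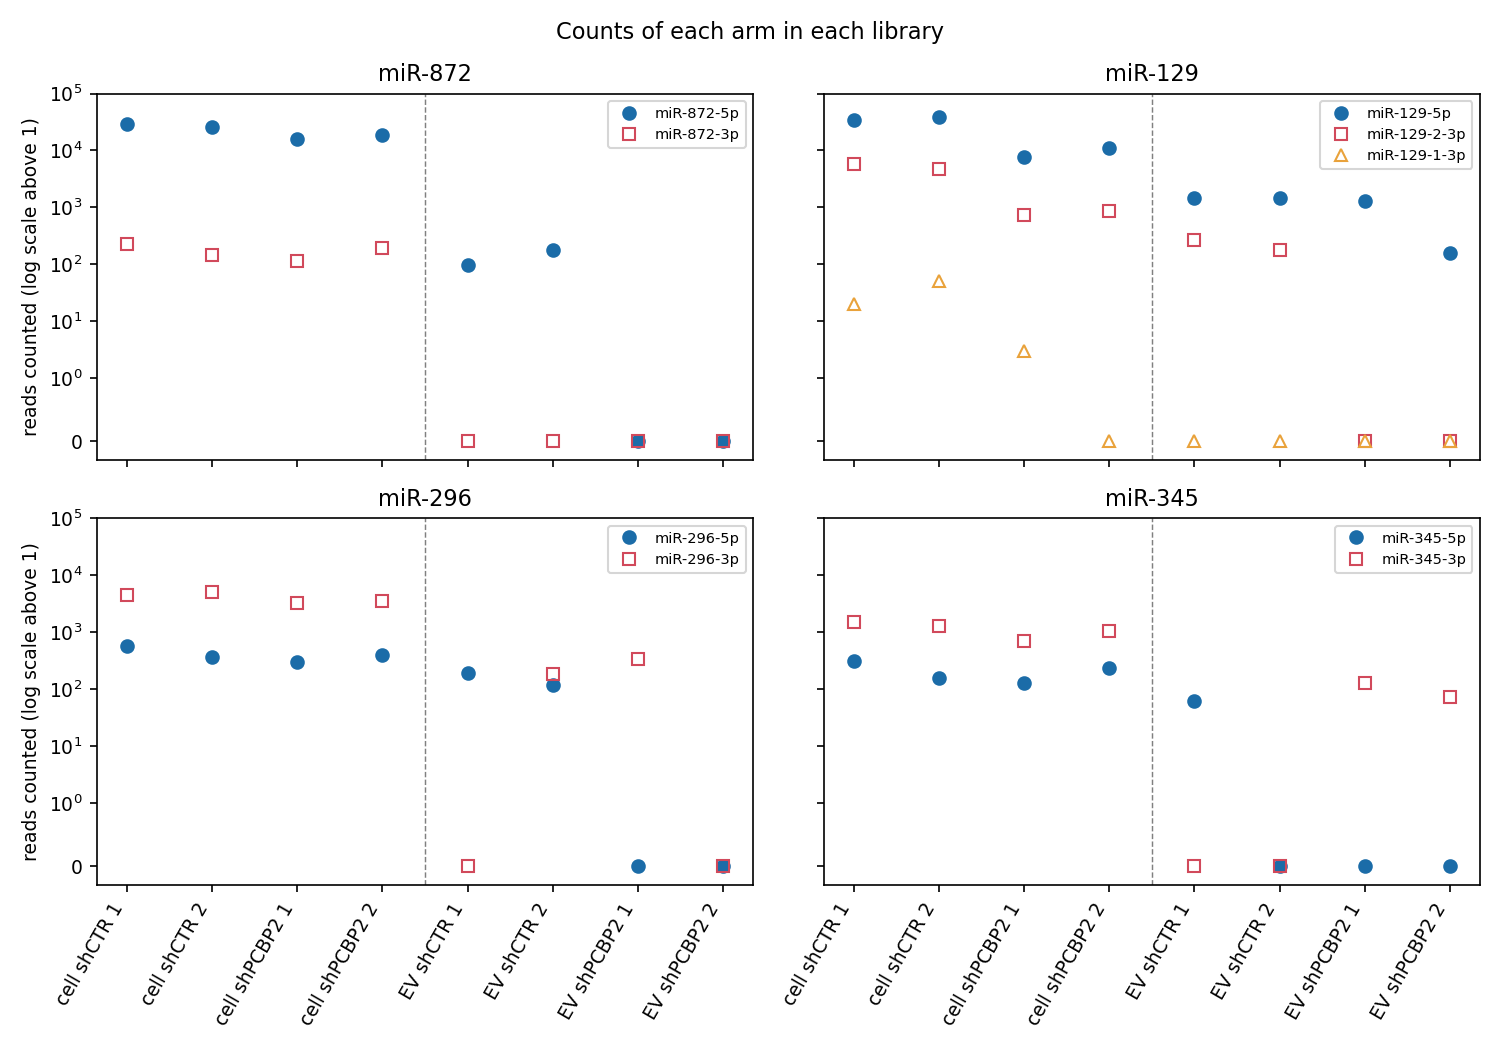
Counts of each arm in each of the 8 libraries. The vertical axis is the number of reads counted (log scale above 1, linear between 0 and 1), 5p arms are filled circles, 3p arms open squares (miR-129-1-3p open triangles), and the dashed line divides cell from EV libraries. Every member except miR-129-1-3p had reads in all cell libraries, whereas 15 of the 36 EV values were above 0.

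The balance of the arms in cells was measured as the share of the 5p arm among the reads of both arms, which does not depend on the spike-in. miR-872 was almost wholly 5p, with a 5p share of 99.2% and 99.4% in cell shCTR and 99.3% and 99.0% in cell shPCBP2. miR-129 was mainly 5p, with 85.2% and 89.1% in cell shCTR and 91.5% and 92.8% in cell shPCBP2. miR-296 and miR-345 were mainly 3p. The 5p share of miR-296 was 11.2% and 6.74% in cell shCTR and 8.48% and 9.81% in cell shPCBP2, and that of miR-345 was 16.9% and 11.1% against 15.9% and 18.8%. Over the 4 cell libraries the dominant arm held 99.3% of the miR-872 reads, 88.3% of miR-129, 91.0% of miR-296 and 84.3% of miR-345. The median over 133 hairpins with both arms counted was 95.01%, so all but miR-872 used both arms more evenly than the median hairpin.

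The shares of miR-129 did not overlap between the conditions, and those of the other families did. How many of the 133 hairpins did not overlap was not counted. The arm ratios of let-7d, miR-106b, miR-151 and miR-27a, named after their values were seen, did not overlap either. The separation was therefore not particular to miR-129. Its 5p/3p ratio was 1.71-fold higher in shPCBP2, a log2 difference of 0.78 (SE 0.31), and the unadjusted p of 0.0130 ranked 4 of the 133 hairpins, but the adjusted p was 0.432 (edgeR's diffSpliceDGE on the quasi-likelihood fit, Benjamini-Hochberg adjustment). limma on the log2 ratio gave an unadjusted p of 0.0924 and an adjusted p of 0.560. The difference therefore did not pass the test over all hairpins by either tool, and diffSpliceDGE gave p-values that were too small in simulated data. The ratio of miR-296 differed by 0.08 (SE 0.53, adjusted p = 0.991), that of miR-345 by 0.38 (SE 0.70, adjusted p = 0.939) and that of miR-872 by -0.41 (SE 0.67, adjusted p = 0.939), all by diffSpliceDGE on the log2 scale. With these errors, changes of the size seen for miR-129 could not have been told from none. Of all 133 hairpins, 8 (6.02%) had an unadjusted p under 0.05, with miR-129 the only one of the 4 families among them, and 3 (2.26%) were called, namely miR-34a, miR-206 and miR-3108.

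**Figure D3:**
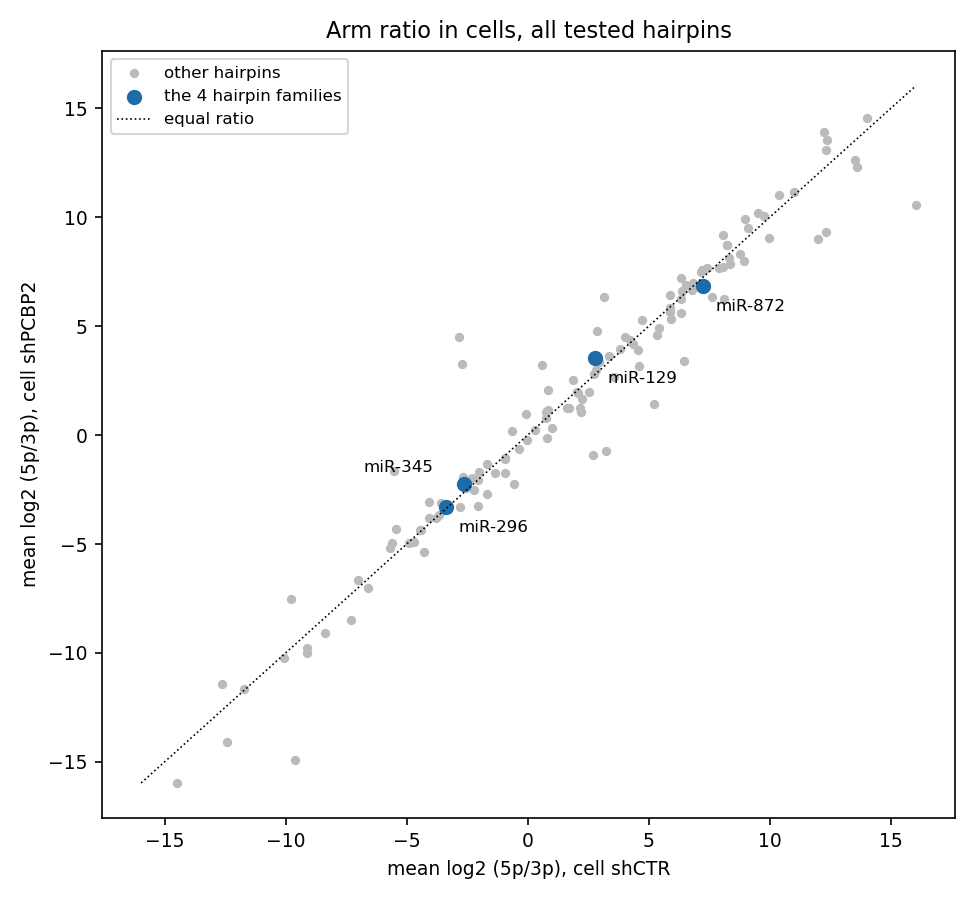
Ratio of the arms in cells. Each point is 1 of 133 hairpins, with the mean log2 5p/3p ratio in cell shCTR on the horizontal axis, that in cell shPCBP2 on the vertical axis, and the dotted line marking an equal ratio. The 4 families lie close to the line, with miR-129 above it by 0.77 in these plotted means.

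In EVs the arms were read far less completely. Of the 133 hairpins, both arms were read in 21 to 28 per EV library against at least 121 per cell library, and a single arm in 71 to 75 per EV library. The counts also left a gap at low values. Among 761 EV counts above 0, 53 (6.96%) were below 61, the lowest of the members, and the median was 403, so an EV count of 0 here stood beside few counts of 1 to 60. The blood cell miRNAs were at 1243 to 1696 spike-in-scaled counts in EVs and at 4.76 to 15.9 in cells, without overlap between cells and EVs, and their part in the EV values of the members was not tested.

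miR-129 was the family with both arms in both EV shCTR libraries. miR-129-5p was counted 1466 and 1455 times in the EV shCTR replicates and 1278 and 160 times in EV shPCBP2. miR-129-2-3p was counted 262 and 179 times in the EV shCTR replicates and never in EV shPCBP2. In EV shCTR the 5p share was 84.8% (95% Wilson interval 83.1% to 86.5%) and 89.0% (87.4% to 90.5%), beside 85.2% and 89.1% in the cell shCTR libraries of the same replicate numbers. The log2 arm ratio of the EV library thus differed from that of the same-numbered cell library by -0.04 and -0.01. Among the hairpins with both arms in the same EV library, 1 of 28 and 0 of 23 had a smaller difference, and the median absolute difference was 1.68 and 1.31. Against the cell library of the other number, the difference was -0.55 and 0.49. No rank was taken there, so the ranks hold for equal numbers only. The reads of miR-129-2-3p in EV shCTR are also part of what chose the family. The labels do not state that equal numbers mark the same culture.

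In EV shPCBP2 reads of the 5p arm alone were counted, and the 0 counts of miR-129-2-3p there are part of what chose the family. The 3p arms had 0 of 1278 reads in replicate 1, which allows a share of up to 0.235%, and 0 of 160 in replicate 2, which allows up to 1.88%. These limits cover counting error only. At the arm ratio of the shPCBP2 cells, 108 and 13.5 reads of the 3p arms would stand beside the 5p counts. The value of replicate 2 lies where few EV counts were seen, so its 0 says little about arm usage. The 5p arm itself remained in EVs at 54.3 ± 2.19 spike-in-scaled counts in shCTR and 19.6 ± 20.3 in shPCBP2 (SD, n = 2). Both shPCBP2 libraries (34.0 and 5.26) lay below both shCTR libraries (52.8 and 55.9), and the mean was 2.77-fold lower in shPCBP2, a fold that was 1.60 without EV shPCBP2 replicate 2 and 10.3 without replicate 1, by an alternative chosen after seeing the data. The EV level of miR-129-5p was 2.52% of its cell level in shCTR and 3.68% in shPCBP2. How the amounts of cell and EV RNA compare is not stated, so such percentages are not the part of the pool that left the cells. For miR-129-2-3p the EV level was 2.63% of the cell level in shCTR, close to that of the other arm. With 3 counts allowed for each 0, its EV level was 91.4-fold lower in shPCBP2 than in shCTR. The cell level was 6.89-fold lower. The EV fold covers counting error only. Few EV counts above 0 (6.96%) lay below 61, so a 0 need not mean a level under 3 counts and the fold may be smaller.

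miR-872-5p was counted 99 and 176 times in the EV shCTR replicates and never in EV shPCBP2, and miR-872-3p had 0 in all 4 EV libraries. At the arm ratio of the shCTR cells, 0.665 and 1.18 reads of the 3p arm would stand beside the 5p counts, under the limit that a count of 0 allows. The arm usage of miR-872 in EVs was therefore not measurable at this depth. The EV level of miR-872-5p was 5.16 ± 2.26 spike-in-scaled counts in shCTR (SD, n = 2). It was 57.8-fold lower in shPCBP2 with 3 counts allowed for each 0, which covers counting error only and is not a lower limit. Its cell level was 1.70-fold lower.

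In the EV shCTR libraries the arms of miR-296 were not counted in the balance of the cells. The EV counts of miR-296-5p are part of what chose the family, so its arm shares in EVs are a description only. miR-296-5p was counted 189 and 117 times in the EV shCTR replicates and never in EV shPCBP2. miR-296-3p was counted 0 and 184 times in the EV shCTR replicates and 341 and 0 times in EV shPCBP2, so 1 library of each condition held it. The 5p share in EV shCTR was 100% in replicate 1, with 0 of 189 reads from the 3p arm, and 38.9% (95% Wilson interval 33.5% to 44.5%) in replicate 2, against 11.2% and 6.74% in the cells. At the arm ratio of the shCTR cells, 1939 and 1200 reads of miR-296-3p would stand beside the 5p counts, far above the 0 and 184 counted. In replicate 2 the log2 arm ratio differed from that of the same-numbered cell library by 3.14. Among the hairpins with both arms in that EV library, 15 of 23 had a smaller difference, and the median absolute difference was 1.31. A departure from the cell ratio in replicate 2 was thus not particular to miR-296. In EV shPCBP2 replicate 1 the 5p arm had 0 beside 341 reads of the 3p arm, where 34.5 would stand at the arm ratio of the shPCBP2 cells. Few EV counts were that low, so this 0 says little about arm usage. The EV level of miR-296-5p was 20.5% of its cell level in shCTR, the highest of the members, and that of miR-296-3p was 1.23%. Since few EV counts above 0 lay below 61, an arm rare in cells that is read in EVs gets a high percentage. The rank is therefore not read as a result about miR-296-5p. Mir298, the neighbouring hairpin named after its values were seen, gave miR-298-5p in every EV library, at 955 and 1183 counts for shCTR and 887 and 512 for shPCBP2.

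miR-345 was the family with an arm read in EV shPCBP2 and not in EV shCTR. miR-345-3p was never counted in the EV shCTR replicates and 126 and 73 times in EV shPCBP2, and miR-345-5p was counted 61 and 0 times in the EV shCTR replicates and never in EV shPCBP2. The arms were thus never read in the same EV library. At the arm ratio of the shPCBP2 cells, 27.0 and 15.7 reads of the 5p arm would stand beside the 3p counts of EV shPCBP2, and none was counted. Few EV counts above 0 lay below 61, so the arm usage of miR-345 in EV shPCBP2 was not measurable either. The EV level of miR-345-3p was 2.88 ± 0.675 spike-in-scaled counts in shPCBP2 (SD, n = 2). That was 25.8-fold higher than in EV shCTR with 3 counts allowed for each 0, a fold that covers counting error only and is not a lower limit. Its cell level was 1.72-fold lower in shPCBP2.

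**Figure D4:**
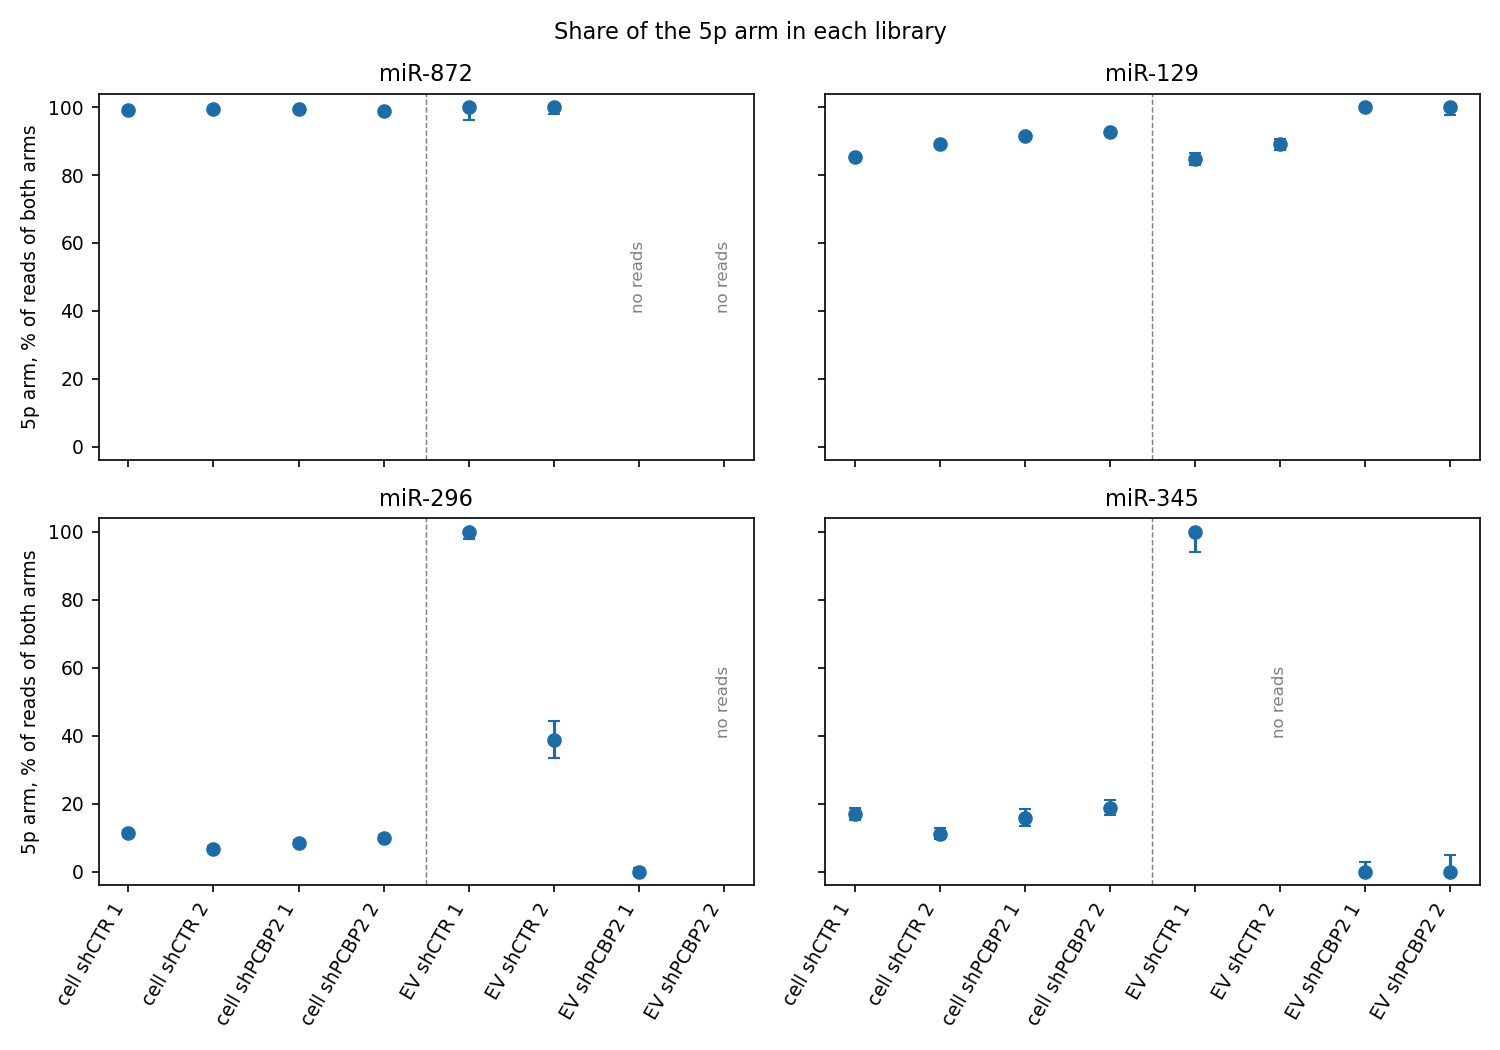
Share of the 5p arm among the reads of both arms of each family in each library (percent, vertical axis), with 95% Wilson intervals that cover counting error only and the dashed line dividing cell from EV libraries. The shares of miR-129 in EV shCTR lie beside those of the cell shCTR libraries and reach 100% in EV shPCBP2, and those of miR-296 and miR-345 in EV shCTR replicate 1 are at 100% against under 20% in cells.

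Just inside the choice of members, the lowest counts in the condition with reads were 73 for miR-345-3p and 99 for miR-872-5p. Just outside it, miR-345-5p was read in 1 library of 1 condition and miR-296-3p in 1 library of each. Across the table, 9 of 267 miRNAs with any EV read (3.37%) had reads in both EV libraries of 1 condition and none in the other, a count that the choice of members fixes in part. Besides the 4 members these were miR-17-3p (42 and 169 counts in EV shCTR), miR-192-5p (1058 and 62), miR-369-5p (187 and 234), and, in EV shPCBP2, miR-23a-5p (205 and 36) and miR-328-3p (116 and 101). The opposite arms miR-17-5p, miR-23a-3p and miR-369-3p were read in all 4 EV libraries, as miR-129-5p was, and miR-192-3p and miR-328-5p in none, as miR-872-3p was. miR-369-5p had no reads in cells.

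The miRNAs with the most similar pattern were found from a Pearson correlation over the 8 libraries, among 391 miRNAs. For it, counts were scaled to the mean spike-in count of the libraries, not to 1000000 spike-in reads. The log2 was taken after 1 was added. The values share libraries, and the contrast between cells and EVs sets much of each correlation. The EV counts that chose the arms are among these values, so likeness to miRNAs with the same EV pattern was largely fixed by the choice. All of the nearest miRNAs except miR-29b-3p had that pattern. miR-872-5p was most like miR-17-3p (r = 0.996) and miR-29b-3p (0.979). miR-129-2-3p and miR-296-5p were most like each other (0.980), and each was next most like miR-192-5p (0.967 and 0.964). miR-345-3p was most like miR-328-3p (0.964) and miR-23a-5p (0.938). No arm had its own opposite arm among these nearest miRNAs.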

How the data were processed

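Small RNA libraries were made by the authors with the NEXTFLEX small RNA kit from RNA to which cel-miR-39 had been added. Per the study's methods, adapters and short or poor reads were removed and the forward reads were aligned to miRBase hairpins with mirPRo. The authors deposited raw counts of reads per mature miRNA, without normalization. The columns of the table that were not used numbered 0. Groups and replicate numbers came from the sample titles, from which the descriptions differ in the numbers of the shPCBP2 samples, and nothing states which cell and EV samples share a culture.

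The members, gene lists and tests were chosen with earlier results of these data known. Named miRNAs were the 9 members, the marker lists, every miRNA with 0 counts in both EV libraries of 1 condition and reads in both of the other, and the 2 most correlated miRNAs of each of the 4 arms. Any other is said in the text to have been named after its values were seen, or is a hairpin called by the arm test.

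Counts were modelled with edgeR 4.0.16 in R 4.3.3, with library sizes set in proportion to the spike-in, over the 4 cell libraries and the miRNAs with at least 10 counts in at least 2 of them (460). glmQLFit and glmQLFTest gave the level tests. diffSpliceDGE gave the test of the 5p against the 3p arm over 133 hairpins with both arms past the filter, with 3p arms of paralogous hairpins summed and 0.5 added to counts for plotted ratios. p-values were adjusted by Benjamini-Hochberg over all features, and SEs were derived from the F statistic and are approximate. An adjusted p under 0.05 was a call. The alternatives used limma 3.58.1, DESeq2 1.42.0, other scalings and filters, and left out each library. Python 3.11.15, pandas 2.3.3, numpy 2.4.6, scipy 1.17.1 and matplotlib 3.10.9 did the remaining steps. A count of 0 was allowed up to 3 counts, and folds against a condition at 0 used 3 counts in each library. Counted reads carry no molecular identifiers and are not independent molecules. Floors and Wilson intervals (95%) therefore cover counting error only. Few EV counts above 0 lay below 61, so folds against a count of 0 in EVs are not lower limits.

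The steps were tested on simulated data. Every simulated miRNA was given the common dispersion of the real fit, whereas the real fit let the spread differ between miRNAs. At that dispersion, 149 of 200 miRNAs with a log2 change of 3 and 2 of 260 unchanged ones were called in the level step, and 0 of 200 with a log2 change of 1. With the dispersion divided by 10, 133 of 200 with a log2 change of 1 were called. The simulation therefore does not set the smallest change that the real fit can call. In the arm step on 133 hairpins, diffSpliceDGE at the common dispersion called 35 of 40 with a log2 difference of 3 and 0 of 40 with 1. With the dispersion divided by 10 it called 31 of 40 with 1. Over the runs at both dispersions, diffSpliceDGE gave an unadjusted p under 0.05 in 7.53% to 14.0% of unchanged hairpins, so its p-values are too small. limma did so in 2.15% to 4.30%. At the common dispersion the values of diffSpliceDGE were 9.68% and 7.53%.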

Additional observations from a re-analysis of the deposited data

How the results depend on the processing

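The number of miRNAs called in cells was 19 and moved to 34 with the total miRNA count, 32 with no filter, 30 with at least 10 counts in every cell library, 39 with the filter of the study's methods, 43 with DESeq2, 45 with limma voom, and 0 with all 8 libraries (34 at an unadjusted p under 0.05 by edgeR). TMM factors gave 12 higher and 15 lower, and median-of-ratios 12 higher and 16 lower, against 0 and 19 with the spike-in. Leaving out 1 library gave 0 to 47 calls, with 5 without cell shCTR replicate 2, 0 without cell shPCBP2 replicate 1 (60 unadjusted) and 47 without cell shPCBP2 replicate 2. These fits leave 1 group with a single library, which is assumed to vary like the other group. With the replicate number as a block, 29 were called. The differences between replicates 1 and 2 of the cell groups correlated at 0.133 over 460 miRNAs, from 2 pairs that the labels do not tie to a shared culture, so the numbers were not taken as pairs.

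Of the members, miR-129-2-3p stayed under an adjusted p of 0.05 in 12 of 14 alternatives, with log2 changes of -2.92 to -2.27, and miR-129-5p in 11 of 14, with -2.29 to -1.52. miR-872-5p passed in 3 of 14 (DESeq2, limma voom and without cell shPCBP2 replicate 2) and miR-345-3p in 1, the filter of the study's methods. Signs turned for miR-872-3p (0.0802 with TMM factors, 0.123 with median-of-ratios), miR-345-5p (0.0140 with TMM factors, 0.0630 with median-of-ratios, and -0.90 to 0.0311 over the left-out libraries, the highest without cell shCTR replicate 1) and miR-296-5p (0.0121 with median-of-ratios), none of them called. The cause was not tested.

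Of the 3 hairpins called in the arm test, 0 were called with limma (11 unadjusted), with median-of-ratios (20 unadjusted), with both arms having any read, or with at least 10 counts in every cell library. Leaving out 1 library gave 0 to 6 calls, with 6 without cell shCTR replicate 1 and 0 without each of the others. The arm ratio of miR-129 stayed higher in shPCBP2 in all 13 alternatives (0.53 to 1.04), with adjusted p-values of 0.0748 to 0.999. That of miR-296 turned to -0.33 without cell shCTR replicate 2 and to -0.05 without cell shPCBP2 replicate 2, in a range of -0.33 to 0.48 over the left-out libraries. Depth limits the EV values, which rest on 503070 to 687592 mouse counts per library.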
